A study of Oryza sativa Japonica Group with 6 samples.

Results

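Growth-regulating factors (GRFs) and GIF1 were followed on 6 rice arrays. The set was 8 listed loci, GRF1 to GRF6, GRF8 and GIF1, and every probe carrying one of these loci was taken. Of the 8, 7 had a probe, among 28855 loci on the array: 6 GRF genes and GIF1, with 11 probes in all. No probe carried the GRF2 locus Os06g0204800, and GRF2 was not analysed here. GRF1, GRF4, GRF5 and GRF6 had 2 probes each, and GRF3, GRF8 and GIF1 had 1 each.

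GRFs are plant transcription factors with a WRC domain that contacts DNA and a QLQ domain that binds a coactivator of the GIF family. The GIF protein does not bind DNA itself and brings chromatin remodelling complexes to the genes that the GRF occupies. In leaves the pair keeps cells dividing, and the microRNA miR396 cleaves many GRF transcripts as tissue matures. In a grass leaf division is confined to the base of the blade and sheath, so high GRF and GIF1 transcript is a known mark of the growing zone and low transcript of the finished blade.

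RNA came from the fourth leaf blade of Nipponbare seedlings at the 4-leaf stage, grown at 25 °C with no treatment. One group of 3 samples was wild type, and the other 3 came from Line 13, a single transgenic line engineered with a linalool synthase, the enzyme that forms the scent terpene linalool. Each sample pooled at least 3 plants. The promoter of the transgene and the source of its coding sequence are not given in the sources used here. All wild-type arrays were on 1 slide with 1 scan time, and all Line 13 arrays on a second slide with a second scan time, so slide, scan and genotype cannot be told apart in any difference given here.

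The rice gene for the targeted enzyme was read first. The rice linalool synthase locus Os02g0121700 read -3.32, -0.92 and -1.50 on wild-type replicates 1 to 3 and -6.52, -5.84 and -3.65 on Line 13 replicates 1 to 3. These are log2 signals minus the log2 of the array's own 75th percentile, the scale used throughout, on which 0 is a signal equal to that percentile. It was lower on the arrays labelled Line 13 by limma (log2 difference -3.43, SE 0.90, adjusted p = 0.0185). That call was lost without wild-type replicate 2 or 3, without Line 13 replicate 2, and with Line 13 replicate 3 alone (adjusted p = 0.0613, 0.0620, 0.0573 and 0.239). An expressed transgene read by this probe would give a higher reading. Whether this probe reads the transgene is not known. Below, wild type and Line 13 mean the arrays so labelled, and every direction rests on those labels. Of the spots on an array, 71.4% to 72.3% were well above background in wild type and 72.3% to 85.5% in Line 13. Correlations between arrays across loci were 0.976 to 0.991 within wild type and 0.902 to 0.979 within Line 13, where replicate 1 stood apart. Between the groups they were 0.603 to 0.740. Photosynthesis genes, which mark leaf blade, were well above background on all 6 arrays for 10 of 10 listed loci.

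GIF1 and all 6 measured GRF genes were higher on the arrays labelled Line 13, and in each of the 7 the lowest Line 13 array lay above the highest wild-type array. The fitted log2 differences ran from 2.43 for GRF5 to 7.96 for GIF1. Called loci were common: of 22231 loci tested, 54.8% were called at an adjusted p under 0.05, with 26.8% higher on Line 13 and 28.0% lower. The groups did not overlap at 68.5% of tested loci, and every Line 13 value lay above every wild-type value at 32.7%. The median log2 difference over all tested loci was -0.07, and over the 7 genes 5.45, or 5.18 with genes at their lower bound. Testing required signal well above background on each of the 3 arrays of a group, and 5 of the 7 genes met this only through Line 13. That filter favours a difference in those 5, so their number is a description and supports nothing further. GRF4 and GRF5 were measured above background on all 6 arrays. GIF1, GRF1 and GRF6, by the probes that stand for them, were above background on no wild-type array, which together with a call higher was found at 7.56% of tested loci. In leaf RNA taken in bulk, fewer cells of a type and less RNA per cell cannot be told apart.

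**Figure D1:**
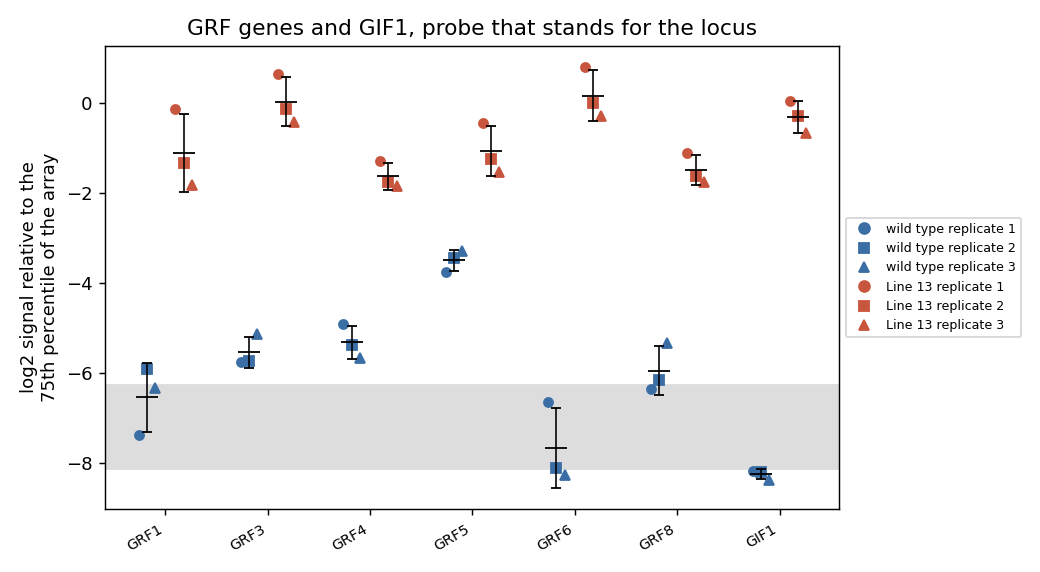
Log2 signal against the array's 75th percentile (y axis) for the 6 measured GRF genes and GIF1 (x axis), 1 symbol per array, blue for wild type and red for Line 13. Horizontal marks are group means and bars are SD over 3 arrays. The grey band spans the lowest signals well above background on the 6 arrays, and in every gene the 3 Line 13 arrays lie above the 3 wild-type arrays, GRF5 with the smallest gap of 1.77.

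GIF1 (Os03g0733600, chromosome 3) encodes the coactivator and was dark in wild type. Its probe, on the coding sequence and 3′ untranslated region, read -8.19, -8.21 and -8.38 in wild type and 0.04, -0.28 and -0.67 in Line 13. The wild-type readings were not well above background on any array, with processed intensities of 2.47, 2.98 and 2.88 against 335, 1283 and 585 on the Line 13 arrays. On all Line 13 arrays it was near the 75th percentile. The fitted difference was 7.96 (SE 0.23, 95% interval 7.39 to 8.52, limma adjusted p = 3.95e-06). Against the lowest signals called well above background on the wild-type arrays GIF1 was at least 90.8-fold higher. Such bounds set the Line 13 mean against wild-type values raised, on each array, to the lowest signal of any probe well above background. That floor is not a detection limit. On wild-type replicate 2 it was -6.89, yet a GRF1 reading of -5.91 there was not well above background. The bounds hold for this background handling only. With normexp background correction the GIF1 difference was 3.68, under the 6.51 that its bound gives in log2.

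GRF6 (Os03g0729500, chromosome 3) acts with GIF1 in the rice panicle and flower. Its probe on the coding sequence and 3′ untranslated region read -6.66, -8.11 and -8.27 in wild type and 0.81, -0.003 and -0.29 in Line 13. No wild-type array showed it well above background, and the groups were 6.37 apart at their nearest. The fitted difference was 7.86 (SE 0.51, limma adjusted p = 6.27e-05), with a bound of at least 126-fold.

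GRF1 (Os02g0776900, chromosome 2) was first described in rice as a gibberellin-responsive gene of the growing stem. The probe that stands for it read -7.40, -5.91 and -6.34 in wild type, above background on no array, and -0.14, -1.34 and -1.83 in Line 13. Its fitted difference was 5.45 (SE 0.55, limma adjusted p = 0.000418), at least 36.3-fold by this probe. Its Line 13 arrays were the most spread of the set, with an SD of 0.87. The other GRF1 probe was well above background on wild-type replicate 3.

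GRF3 (Os04g0600900, chromosome 4) belongs to the GRFs that bind KNOX gene promoters in rice. It read -5.77, -5.74 and -5.14 in wild type, where replicate 3 was well above background, and 0.65, -0.12 and -0.42 in Line 13. The groups were 4.72 apart at their nearest. For GRF3 the fit gave a difference of 5.59 (SE 0.34, limma adjusted p = 4.9e-05), a fold of 48.0 in which 2 of 3 wild-type readings were not well above background.

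GRF8 (Os11g0551900, chromosome 11) is a miR396 target known from studies of planthopper resistance in rice. It read -6.37, -6.16 and -5.33 in wild type, again with replicate 3 alone well above background, and -1.10, -1.61 and -1.75 in Line 13. Its Line 13 arrays were close to each other, with an SD of 0.34. For GRF8 the fit gave 4.47 (SE 0.34, limma adjusted p = 0.000119) and the fold 22.1.

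GRF4 (Os02g0701300, chromosome 2) is the grain-size gene also called GS2, a partner of GIF1 and a regulator of nitrogen use. Its coding-sequence probe was well above background on all 6 arrays. It read -4.92, -5.39 and -5.66 in wild type and -1.28, -1.74 and -1.85 in Line 13. The groups were 3.07 apart. The fitted difference was 3.70 (SE 0.27, 95% interval 3.05 to 4.36, limma adjusted p = 0.000108), or 13.0-fold.

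GRF5 (Os06g0116200, chromosome 6) had the smallest difference of the set. Its probe on the coding sequence and 3′ untranslated region read -3.75, -3.44 and -3.29 in wild type and -0.44, -1.23 and -1.52 in Line 13, above background on every array. The groups did not overlap and were 1.77 apart. The fitted difference was 2.43 (SE 0.32, 95% interval 1.66 to 3.20, limma adjusted p = 0.00128), or 5.39-fold. A call of at least this difference was made at 12.2% of all tested loci. With 3 arrays against 3 the exact two-sided permutation test cannot go below 0.1, and it gave 0.1 for every probe of the set.

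The order of the fitted differences was GIF1, GRF6, GRF3, GRF1, GRF8, GRF4 and GRF5. Neighbours in this order had overlapping 95% intervals, apart from the step from GRF6 to GRF3, where the intervals were 6.64 to 9.07 and 4.77 to 6.40. Differences between genes were not tested, and the sizes for genes at background in wild type depend on how background was handled. By the lower bounds GRF6, at 126-fold, came before GIF1, at 90.8-fold, and with normexp it did too. With normexp background correction the differences were 3.68 for GIF1, 3.99 for GRF6, 2.61 for GRF1 and 3.44 for GRF3. They were 2.31 for GRF8, 2.06 for GRF4 and 1.67 for GRF5. In that fit the brighter probe of GRF1 was the other one. All 7 were still called, the highest adjusted p being 0.00302.

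**Figure D2:**
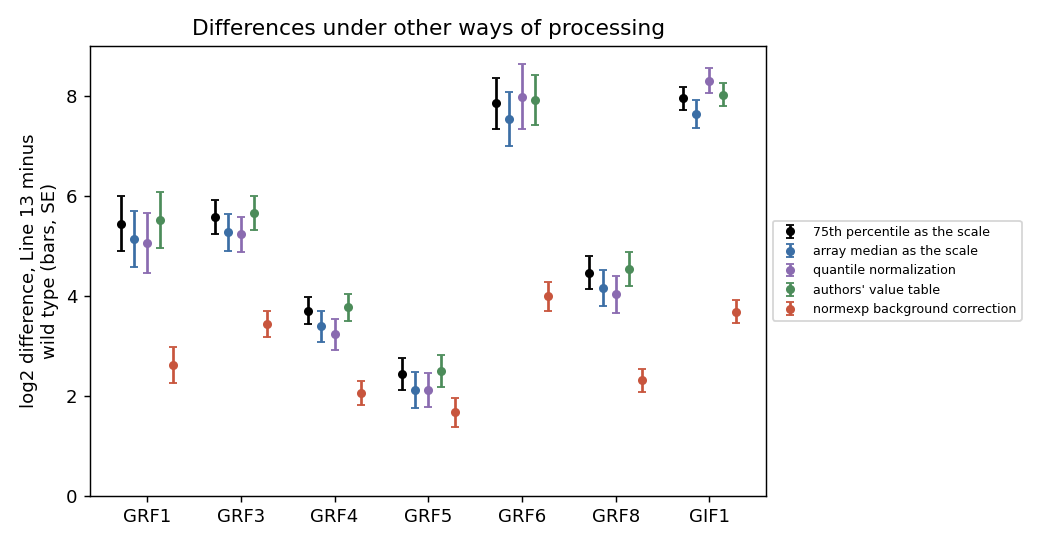
Fitted log2 difference, Line 13 minus wild type (y axis), for each gene (x axis) under 5 ways of scaling or background correction, given by colour. Bars are SE. Normexp correction gives the smallest difference for every gene, from 1.67 to 3.99, and all stay above 0.

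The 4 genes with 2 probes were read again probe by probe, and all 11 probes were called higher, where 26.1% of 33367 tested probes were. Only the coding-sequence probe of GRF4 and the GRF5 probes were above background on all 6 arrays. The rest of the 11 were tested only through Line 13, a filter that favours a difference. Both GRF1 probes lie on the coding sequence and 3′ untranslated region. The second read -8.03, -8.08 and -5.84 in wild type and -0.18, -1.35 and -1.85 in Line 13. It gave a difference of 6.19 (SE 0.72, limma adjusted p = 0.000799) and, as the first, was highest on Line 13 replicate 1.

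The second GRF4 probe, on the coding sequence and 3′ untranslated region, read -7.74, -7.27 and -6.90 in wild type and -1.20, -2.19 and -2.42 in Line 13. It was above background on no wild-type array, unlike the coding-sequence probe. Its difference was 5.37 (SE 0.39, limma adjusted p = 0.000108), at least 29.1-fold. The GRF4 difference thus ran from 3.70 to 5.37 with the probe chosen.

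The GRF5 and GRF6 pairs set a probe on the 5′ untranslated region and coding sequence beside one on the 3′ side. The 5′ probe of GRF5 read -5.29, -5.17 and -5.29 in wild type and -3.61, -3.65 and -3.97 in Line 13. It was above background everywhere, and its difference of 1.51 (SE 0.19, limma adjusted p = 0.00105) was smaller by 0.92 than that of the 3′ probe. Under normexp correction it was 0.61 and not called (adjusted p = 0.110). The 5′ probe of GRF6 read -7.67, -7.70 and -7.89 in wild type and -2.80, -2.16 and -2.12 in Line 13. Its difference was 5.39 (SE 0.24, limma adjusted p = 1.51e-05), at least 21.9-fold.

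**Figure D3:**
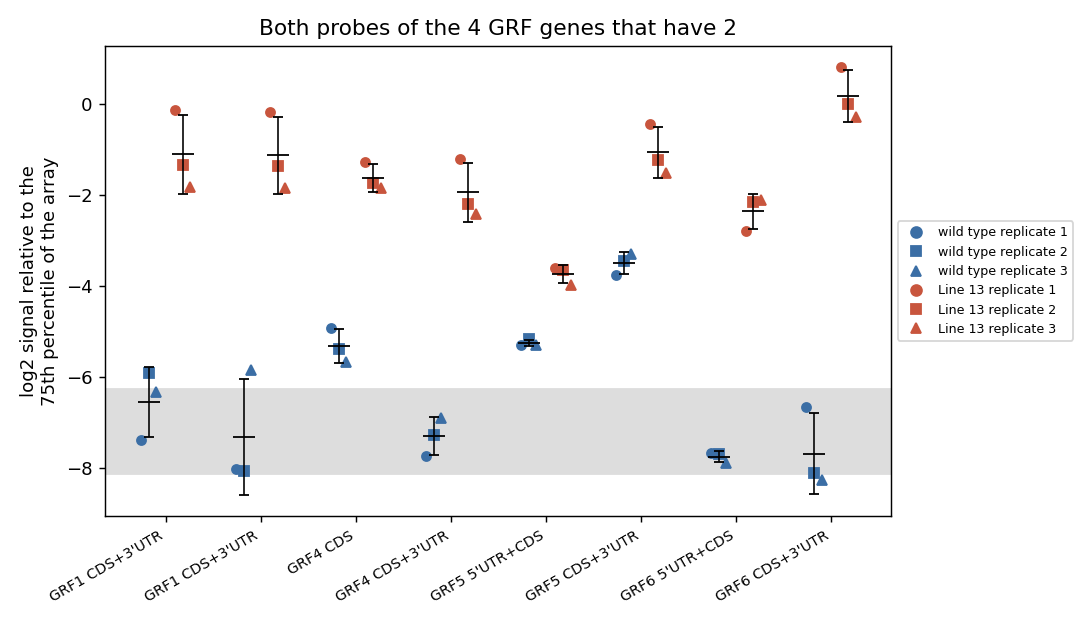
Log2 signal against the array's 75th percentile (y axis) for both probes of GRF1, GRF4, GRF5 and GRF6, named on the x axis by the transcript part in the probe's name. Symbols are arrays, horizontal marks are group means, bars are SD over 3 arrays, and the grey band spans the lowest signals well above background. All 8 probes are higher in Line 13, and in GRF6 the 5′ probe is lowest on Line 13 replicate 1 while the 3′ probe is highest there.

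The offset between 5′ and 3′ probes was also read over the whole array. Over 358 loci with a probe of each kind above background on all 6 arrays, the median of the 5′ reading minus the 3′ reading was -1.63, -1.64 and -1.65 in wild type. It was -2.68, -1.86 and -1.58 in Line 13, lowest on replicate 1 and at the wild-type level on replicate 3. For GRF5 the same quantity was -1.54, -1.73 and -1.996 in wild type and -3.17, -2.42 and -2.45 in Line 13. For GRF6, at background in wild type, it was -3.61, -2.16 and -1.83 in Line 13. The part of the array-wide offset in the differences of GRF5 and GRF6 was not tested.

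Among the Line 13 arrays, replicate 1 was the highest and replicate 3 the lowest in 7 of 7 genes by the probes that stand for them, also with the array median, quantile normalization or normexp correction. The 5′ probe of GRF6 had the reverse order. The first order was found at 34.9% of all tested loci and at 57.4% of those called higher. It was found in 12 of 12 cell division genes. The order in the 7 genes rests on the scaling of the arrays. The 75th percentile signal was 325, 1559 and 932 on Line 13 replicates 1, 2 and 3. Before scaling, the processed intensity of all 7 genes was highest on replicate 2. Summed over the 7 genes, as a percentage of the 75th percentile signal, the level was 15.7, 17.2 and 19.4 in wild type and 687, 419 and 340 in Line 13. With Line 13 replicate 3 alone against wild type, a fit chosen after its KNOX signals were seen, the spread comes from the wild-type arrays only and the lone array is assumed to vary as they do. In it every gene was called, with differences of 7.59 for GIF1 and 7.40 for GRF6. Those of GRF3, GRF1, GRF8, GRF4 and GRF5 were 5.13, 4.72, 4.21, 3.48 and 1.97.

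Cell division genes were called higher in 12 of 12 loci, where 26.8% of all tested loci were. Of the 12, 8 were tested only through Line 13, a filter that favours a difference. The median difference was 6.97, or 6.12 with genes at their bound, while the 4 loci above background on all 6 arrays differed by 0.73 to 4.41. Their summed level ran from 143 to 175 in wild type and from 1126 to 2384 in Line 13, and none was at background on Line 13. PCNA (Os02g0805200), the sliding clamp of DNA polymerase, differed by 2.81 (SE 0.27, limma adjusted p = 0.000356). RNRL1 (Os06g0168600), the large subunit of ribonucleotide reductase, differed by 2.41 (SE 0.34, adjusted p = 0.00158). CDKB1;1 (Os01g0897000), a mitotic kinase, differed by 0.73 (SE 0.26, adjusted p = 0.0497), a call lost under 10 of the 16 alternatives. Their part in the GRF differences was not tested.

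Class I KNOX genes mark the shoot meristem and stem and lie downstream of some GRFs. Among the Line 13 arrays they were lowest on replicate 3. Summed over 5 loci they stood at 4.25 to 10.12 in wild type and at 49.98, 122 and 7.92 on Line 13 replicates 1, 2 and 3. Of the 3 tested, OSH43 (Os03g0771500) and OSH71 (Os05g0129700) were above background on no wild-type array and were tested only through Line 13. OSH43 was at least 2.81-fold higher (limma adjusted p = 0.00517), with replicate 1 highest as in the GRFs, and its call was lost under normexp correction. OSH71 was at least 7.52-fold higher (adjusted p = 0.0357), highest on replicate 2, a call lost under 8 of 15 alternatives. OSH1 (Os03g0727000) read -3.74, -4.28 and -5.31 in wild type and -2.03, -1.29 and -4.42 in Line 13, with overlapping groups and an adjusted p of 0.104. The list count changed to 4 without Line 13 replicate 3, and to 1 without any other single array. Line 13 replicate 3 had the lowest KNOX signals of its group. It read above every wild-type array for all 7 genes of the set, which already follows from the groups not overlapping. Of these 7, 5 were tested only through Line 13. On Line 13 replicate 3 the cell division genes summed to 1126, against 143 to 175 in wild type. The relation of the KNOX signals to the GRF differences was not tested.

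Markers of other organs moved as follows. The root gene RCc2 (Os02g0662100) read -7.57, -7.60 and -7.78 in wild type and 4.70, 4.60 and 4.88 in Line 13 (at least 2971-fold higher, limma adjusted p = 1.4e-06). RCc3 (Os02g0662000), also at background in wild type, was at least 6.48-fold higher (adjusted p = 0.0257), a call lost without wild-type replicate 2 or 3, under normexp correction and with Line 13 replicate 3 alone. The summed level of these root genes was 0.743 to 1.45 in wild type and 2451 to 2952 in Line 13. Nearly all of the Line 13 sum was RCc2, at 2603, 2423 and 2950 on replicates 1, 2 and 3. RCc3 gave 4.42, 27.2 and 1.61 there. Of 9 floral organ MADS-box loci 5 were tested, 0 were higher and 2 were lower, MADS7 and MADS8 being above background on no array. MADS16 (Os06g0712700) differed by -1.68 (adjusted p = 0.044), MADS1 (Os03g0215400) by -2.44 (adjusted p = 0.013) and MADS58 (Os05g0203800) by -0.52 (adjusted p = 0.312). The MADS16 call was lost under 7 alternatives, each left-out wild-type array among them, and that of MADS1 with Line 13 replicate 3 alone. Their summed level was 56.0 to 66.8 in wild type and 19.2 to 33.2 in Line 13. Photosynthesis genes were lower in 8 of 10 and higher in 0, where 28.0% of all tested loci were lower. Their median difference was -1.51, with summed levels of 152404 to 198762 against 41847 to 99003. RCA (Os11g0707000), rubisco activase, differed by -1.51 (SE 0.34, adjusted p = 0.0104). The rubisco small subunit loci Os12g0274700 and Os12g0291100 differed by -0.61 and -1.09 (adjusted p = 0.235 and 0.126). The part of tissue makeup in the GRF and GIF1 differences was not tested.

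**Figure D4:**
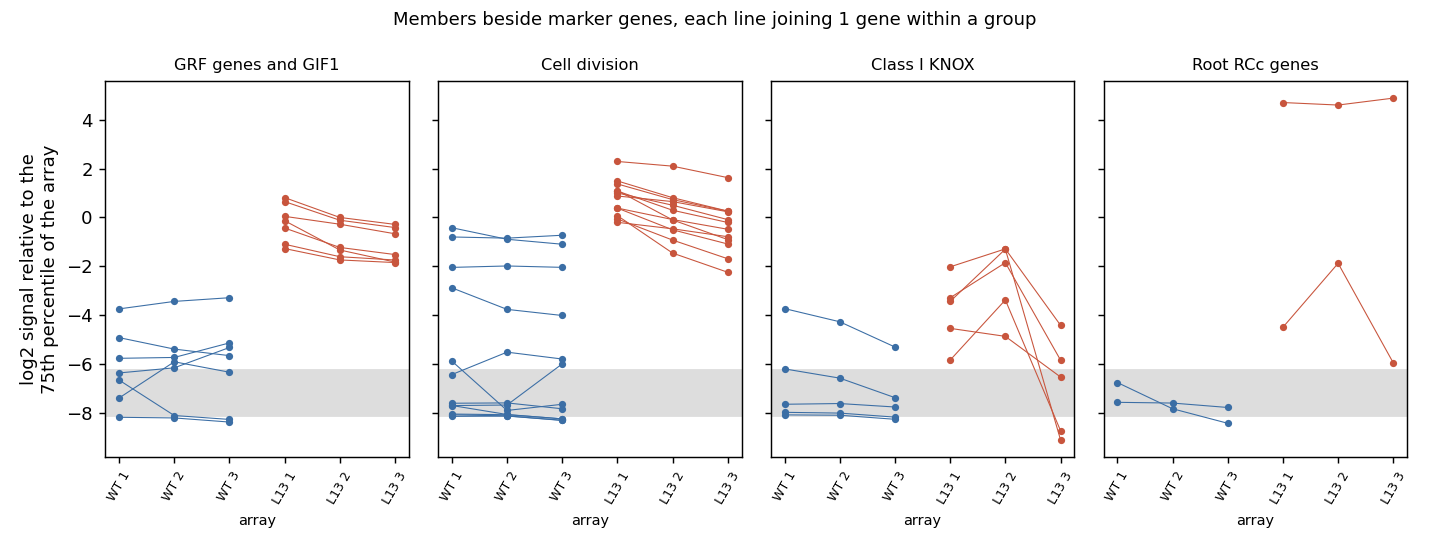
Log2 signal against the array's 75th percentile (y axis) on the 6 arrays (x axis), with each line joining 1 gene within a group, for the GRF genes and GIF1, cell division genes, class I KNOX genes and RCc root genes. The grey band spans the lowest signals well above background. Of the Line 13 arrays, replicate 1 is the highest and replicate 3 the lowest for the GRF and cell division genes, and KNOX genes are lowest on Line 13 replicate 3.

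The rest of the family held both kinds of behaviour. Of 7 further GRF and GIF loci 6 were tested, 4 were called higher, 0 lower, and 2 were not called. Their median difference was 3.83, or 3.33 with genes at their lower bound. Over all tested loci 26.8% were called higher. GRF7, GRF9 and GRF10 were tested only through Line 13, a filter that favours a difference. Of the 3 loci above background on all 6 arrays, GRF11, GIF2 and GIF3, only GIF3 was called. GRF7 (Os12g0484900) read -7.61, -7.61 and -7.77 in wild type and -0.34, -1.13 and -1.55 in Line 13, at least 55.9-fold higher (limma adjusted p = 2.07e-05). GRF9 (Os03g0674700) read -7.98, -8.01 and -8.18 against -0.44, -1.31 and -1.71, at least 50.4-fold higher (adjusted p = 2.11e-05). GRF10 (Os02g0678800), which with GRF3 binds KNOX promoters, read -7.66, -7.34 and -7.88 against 0.01, -0.82 and -1.31, at least 68.6-fold higher (adjusted p = 2.76e-05). All 3 were dark in wild type, as GIF1 and GRF6 were.

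GRF11 (Os07g0467500) was well above background in both groups. It read -0.18, -0.11 and 0.01 in wild type and -0.36, -0.54 and -0.37 in Line 13. The groups did not overlap, but the difference of -0.33 (95% interval -0.75 to 0.09) was not called (limma adjusted p = 0.147). With the array median as the scale, which moved the median of all loci by -0.31, it was -0.64 and called lower (adjusted p = 0.0291). The coactivator gene GIF2 (Os11g0615200) stayed between -0.18 and 0.03 in wild type and between -0.06 and 0.30 in Line 13, a difference of 0.12 (95% interval -0.34 to 0.58, adjusted p = 0.621). GIF3 (Os12g0496900) read -0.93, -0.72 and -0.67 in wild type and 0.86, 0.11 and -0.29 in Line 13. It was called higher by 0.998 (SE 0.32, adjusted p = 0.0358), and 8 of 16 alternatives lost that call. GIF2 and GIF3 were thus measured on every wild-type array, where GIF1 was not well above background. GRF12 (Os04g0574500) was above background on no wild-type array and on 2 Line 13 arrays, and was not tested.

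**Figure D5:**
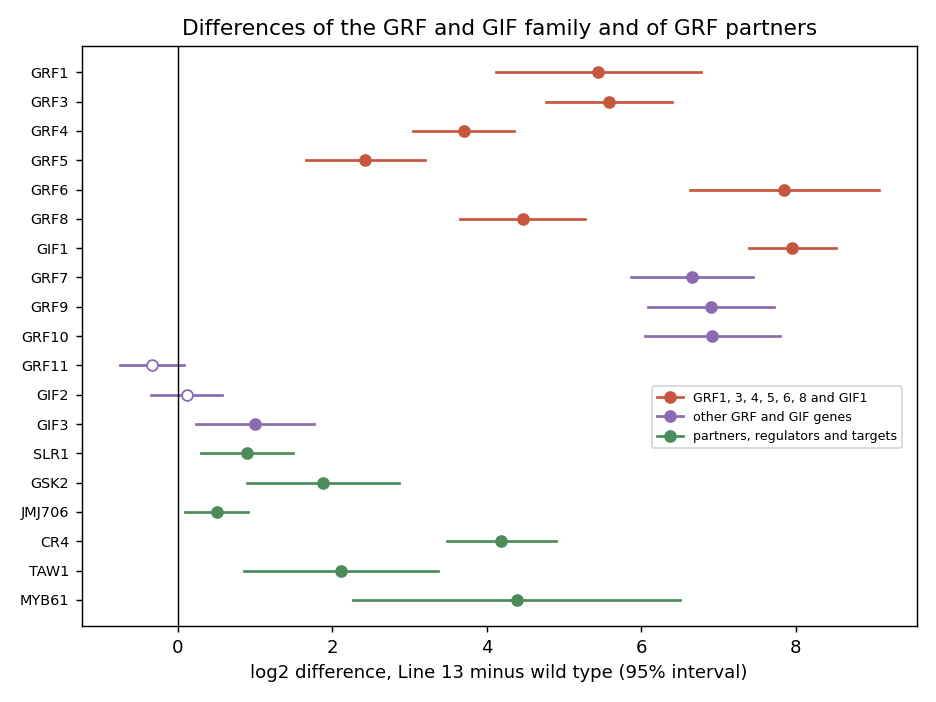
Fitted log2 difference, Line 13 minus wild type (x axis, lines are 95% intervals), for the 7 measured genes of the set, the other tested GRF and GIF genes, and GRF partners, regulators and targets (y axis). Filled points passed an adjusted p of 0.05, and GRF11 and GIF2 are the open points, with intervals that hold 0.

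Genes known in rice as partners, regulators or targets of GRFs were called higher in 6 of 6, where 26.8% of all tested loci were. Their median difference was 1.998. The list fell to 3 of 6 without wild-type replicate 3, and to 3 of 6 with Line 13 replicate 3 alone. CR4 (Os03g0637800), a receptor-like kinase gene bound by GRF6 in floral development, read -5.18, -5.01 and -4.56 in wild type and -0.35, -0.64 and -1.19 in Line 13 (difference 4.19, SE 0.29, limma adjusted p = 8.71e-05). MYB61 (Os01g0285300), a regulator of cellulose synthesis and nitrogen use under GRF4, read -7.53, -5.61 and -4.47 against -2.76, -0.87 and -0.80 (difference 4.39, SE 0.88, adjusted p = 0.00668). Both were called under every alternative in which they were tested.

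TAW1 (Os10g0478000), a panicle branching regulator bound by GRF6, differed by 2.11 (SE 0.52, limma adjusted p = 0.0146). GSK2 (Os05g0207500), the brassinosteroid kinase that restrains GRF4, differed by 1.88 (SE 0.41, adjusted p = 0.00895). SLR1 (Os03g0707600), the DELLA protein that competes with GIF1 for GRF4, differed by 0.90 (SE 0.25, adjusted p = 0.021). JMJ706 (Os10g0577600), a histone demethylase gene bound by GRF6 as CR4 is, differed by 0.51 (SE 0.17, adjusted p = 0.0439). The JMJ706 call was lost under 11 of 16 alternatives, that of SLR1 under 5, that of TAW1 under 3 and that of GSK2 under 2. Apart from MYB61, all were well above background on the 6 arrays.

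The array also carried probes for miR396, the microRNA that cleaves GRF transcripts. There were 12 probes on 4 precursors, and 8 were above background on no array, among them 4 of 4 probes to the mature microRNA. The labelling kit copies RNA from its poly(A) tail, which mature microRNAs lack. Of the 4 tested probes 3 were called higher and 0 lower, where 26.1% of all tested probes were higher. These 3 were tested only through Line 13, a filter that favours a difference. The 3′ probe of miR396d alone was above background on all 6 arrays, and it was not called. The 3′ precursor probe of miR396c (Os02g0804000) read -7.46, -7.84 and -7.92 in wild type and -3.04, -3.05 and -3.39 in Line 13, at least 12.5-fold higher (limma adjusted p = 1.8e-05). The 5′ probe of miR396c read -6.75, -6.78 and -7.20 against -4.58, -3.87 and -3.99, at least 6.16-fold higher (adjusted p = 0.000339). So the miR396c precursor signal was higher on the same arrays as the GRF signals. The size depended on the processing. Over the alternatives the lowest miR396c differences were 1.25 for the 3′ probe and 0.80 for the 5′ probe. They lie under the 3.65 and 2.62 that the bounds of these probes give in log2. For miR396d (Os04g0674500) the 5′ probe differed by 1.79 (SE 0.40, adjusted p = 0.0105), a call lost with quantile normalization (1.09, adjusted p = 0.105) and with normexp correction (0.50, adjusted p = 0.370). Its 3′ probe differed by -0.15 (95% interval -0.84 to 0.55, adjusted p = 0.690), and with quantile normalization by -0.85, which was called lower (adjusted p = 0.0380). Those probes of a single precursor disagreed, and levels of mature miR396 were not measured.

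Profiles over the 6 arrays were compared with the mean profile of GRF4 and GRF5, the genes measured above background on every array. Likeness was the root mean square difference of profiles centred on their own mean. Of all tested loci the most alike were Os04g0376600, at 0.0833, and Os09g0473600, at 0.0848. The first was above background on all 6 arrays. The second was so on no wild-type array, so its likeness rests on readings at background, and under normexp correction its difference was 0.46 and not called (limma adjusted p = 0.403). Of the listed loci outside the set the most alike were PCNA at 0.241, RNRL1 at 0.355 and OSH43 at 0.476. With 6 arrays in 2 groups, likeness rests mostly on the difference between the groups.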

How the data were processed

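RNA from 3 wild-type and 3 Line 13 samples was hybridised to one-colour arrays. Per the file headers, Agilent Feature Extraction 10.10.1.1 measured each spot, and the deposited processed intensity is linear and background subtracted, with no scaling across arrays. The value table that the authors deposited holds the same intensity times 1 constant per array, from 1.61 to 7.66, of unstated origin, with no centring.

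Here the processed intensity was divided by the array's 75th percentile over non-control spots and its log2 was modelled with limma 3.58.1, run under R 4.3.3 (2 groups, no block, Benjamini-Hochberg, threshold 0.05). Spots flagged as outliers and 59 probes of no rice gene were left out. A locus was represented by its tested probe with the highest mean, and a probe counted as well above background where at least 50% of its spots were. Normexp (offset 50) used the median spot and background intensities. The fit recovered known changes in simulated data, where 200 loci were changed and noise was normal. That simulation did not cover changes at most loci, the scaling, readings at background or the slides. P-values measure only the spread between these samples. The number of arrays limits precision.

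Genes, lists and rules were chosen with earlier results of these data known. The 5′ and 3′ comparison and the fit with Line 13 replicate 3 alone were added after the data were seen. Named were all GRF, GIF and partner loci, the 3 loci of highest mean in each other list, and the loci most alike. Gene names and roles are general knowledge, since the reference table matched 0 of the set. Sequences and coordinates were not used here. Alternatives were 2 other scalings, the value table, normexp, 2 filters, outlier spots, probe averaging, the replicate block and leaving out each array. Figures used Python 3.11.15 and matplotlib 3.10.9.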

Additional observations from a re-analysis of the deposited data

How the results depend on the processing

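The 7 genes were called higher under every alternative in which they were tested. Requiring signal on all 6 arrays left 2 of them to test (GRF4, GRF5), and 2 were higher. With that filter 1 of 3 other GRF and GIF genes, 4 of 4 cell division genes and 0 of 1 KNOX genes were higher. Root genes were not tested in it. Of MADS-box genes 1 of 3 was lower, and 3792 of 18021 loci were higher. Leaving out 1 array gave 4700 to 7085 loci higher and 4066 (without wild-type replicate 2) to 7509 lower, 3 to 6 partners, 1 to 4 KNOX and 1 to 2 root genes higher, and 1 to 3 MADS-box and 5 to 9 photosynthesis genes lower. Quantile normalization gave 1 KNOX gene higher, 4 MADS-box genes and 5 photosynthesis genes lower. Normexp gave 0 KNOX genes and 1 root gene higher, and 0.61 for the 5′ GRF5 probe. The array median gave 1 other GRF gene lower. The value table, and no filter, each gave 1 MADS-box gene lower. Line 13 replicate 3 alone gave 3 partners, 1 KNOX gene and 1 root gene higher. Signs turned for GIF2 (-0.19 with the array median, -0.022 with replicate 3 alone), MADS58 (0.19 with replicate 3 alone) and the rubisco locus Os12g0274700 (0.32 with quantile normalization, 0.053 with replicate 3 alone). They turned also for the 3′ miR396d probe (0.017 with normexp, and -0.41 to 0.085 leaving out 1 array, above 0 without wild-type replicate 1). The cause was not tested. Of calls, 48.9% were higher, against 36.01% with the array median and 41.7% with quantile normalization, which moved the median locus by -0.31 and -0.18.

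Same-numbered samples had deviation correlations of 0.108, -0.0253 and -0.00478, so no strong shared deviation was seen. Samples of different number were not compared, so whether the numbers pair the samples is not settled. With the replicate as a block 5512 loci were higher and 5389 lower, and the 7 genes were called. The block also called OSH1 higher (1.86, adjusted p = 0.0273) and lost the calls of GIF3, JMJ706 and CDKB1;1. In wild type, GIF1, GRF6 and the standing GRF1 probe were at background on 3 arrays, so their folds are given as lower bounds. Those bounds hold only for the background handling of the main fit. GRF3 and GRF8 were at background on 2 wild-type arrays, so their folds rest partly on background.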
